A study of Rattus norvegicus with 7 samples.

Results

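Prg4, Vat1l, Fscn1, Cpxm1 and Galnt6 are 5 genes whose RNA was higher in every irradiated than in every untreated library of rat meibomian gland, out of 17246 genes in the table. They were chosen by symbol, from a list selected on the UVB against control difference in these same counts and TPM, so that difference is described here and not tested. RNA sequencing covered whole dissected glands of wild-type female Sprague-Dawley rats aged 3 months. The 4 control libraries are labelled as untreated. The 3 UVB libraries came from rats whose shaved upper eyelids received ultraviolet B light at 300 mJ/cm2 over 5 min a day, on 5 days, with the aim of comparing gene expression in irradiated and non-irradiated glands. The labels do not say whether controls were shaved, how long after the last exposure the glands were taken, or whether each library held 1 animal, and the lids rather than the glands were irradiated. P-values measure the spread between these samples.

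The meibomian gland is a modified sebaceous gland in the eyelid. Its acinar cells, the meibocytes, fill with lipid and burst to release meibum, the oil that covers the tear film, and a stratified epithelium lines its ducts. The 5 genes belong to no single pathway. Prg4 encodes lubricin (proteoglycan 4), a secreted mucin-like glycoprotein known as the boundary lubricant of joints and also present at the ocular surface, where it binds hyaluronan and the receptors CD44, TLR2 and TLR4. Cpxm1 encodes a secreted protein of the M14 carboxypeptidase family that binds collagen and lacks detectable peptidase activity. Fscn1 encodes fascin, which packs actin filaments into the parallel bundles of filopodia and is also a marker of mature dendritic cells. Galnt6 encodes a Golgi enzyme that starts mucin-type O-glycosylation by adding N-acetylgalactosamine to serine or threonine. Vat1l encodes a little studied relative of the vesicle protein VAT1, with the fold of medium-chain oxidoreductases.

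Because the 5 genes were high in the same libraries, the sequences around their starts are shown first, to let a reader see how far these differ. RefSeq promoter windows of rat assembly GRCr8 run from 250 bases before to 50 bases after the annotated start, and all 5 genes matched by NCBI gene ID. Capitals mark a match, on either strand, to one of 7 motifs: the cAMP response element (CRE) TGACGTCA, the AP-1 site TGANTCA, the TATA box TATAAA, the CCAAT box CCAAT, the GC box GGGCGG, the TEAD site CATTCC and the STAT site TTCNNNGAA. No match overlapped another. Prg4 lies at chr13:65054176-65054475 on the minus strand, Cpxm1 at chr3:138048394-138048693 (minus), Fscn1 at chr12:16723685-16723984 (minus), Galnt6 at chr7:133694235-133694534 (minus) and Vat1l at chr19:59103386-59103685 (plus).
Prg4: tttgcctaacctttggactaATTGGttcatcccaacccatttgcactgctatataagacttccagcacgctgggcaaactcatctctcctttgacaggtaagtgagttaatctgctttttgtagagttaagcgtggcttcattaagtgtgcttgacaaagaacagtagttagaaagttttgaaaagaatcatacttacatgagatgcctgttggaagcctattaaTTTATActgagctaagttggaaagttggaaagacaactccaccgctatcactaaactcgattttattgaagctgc
Cpxm1: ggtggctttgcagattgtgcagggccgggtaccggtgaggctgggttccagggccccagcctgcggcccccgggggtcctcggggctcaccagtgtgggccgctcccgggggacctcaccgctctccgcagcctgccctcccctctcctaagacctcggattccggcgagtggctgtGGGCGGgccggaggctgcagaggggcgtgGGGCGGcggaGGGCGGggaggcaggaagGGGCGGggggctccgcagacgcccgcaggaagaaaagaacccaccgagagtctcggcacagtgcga
Fscn1: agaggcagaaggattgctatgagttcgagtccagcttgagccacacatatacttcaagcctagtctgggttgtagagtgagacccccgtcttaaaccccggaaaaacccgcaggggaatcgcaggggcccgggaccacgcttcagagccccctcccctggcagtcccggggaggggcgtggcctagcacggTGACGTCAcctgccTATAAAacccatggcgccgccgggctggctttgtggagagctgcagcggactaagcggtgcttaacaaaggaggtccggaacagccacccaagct
Galnt6: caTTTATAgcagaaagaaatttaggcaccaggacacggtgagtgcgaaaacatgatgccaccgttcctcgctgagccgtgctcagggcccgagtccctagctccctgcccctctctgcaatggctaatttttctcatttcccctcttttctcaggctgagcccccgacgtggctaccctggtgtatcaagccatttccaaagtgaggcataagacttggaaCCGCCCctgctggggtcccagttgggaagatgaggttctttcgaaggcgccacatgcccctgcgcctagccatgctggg
Vat1l: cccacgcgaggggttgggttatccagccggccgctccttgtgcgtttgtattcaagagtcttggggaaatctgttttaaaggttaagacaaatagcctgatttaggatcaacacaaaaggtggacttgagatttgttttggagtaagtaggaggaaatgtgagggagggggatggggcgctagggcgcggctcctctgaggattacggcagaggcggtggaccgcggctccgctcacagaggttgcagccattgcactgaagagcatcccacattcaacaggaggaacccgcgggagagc

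The windows had little in common. The full CRE was found in Fscn1 alone among the 5, at positions -59 to -52 from the start, followed by a TATA box at -45 to -40, and 1.83% of the 33469 promoters in the table held a CRE. Cpxm1 held 4 GC boxes between -73 and -11, and its window was 73% G and C, against a median of 51.7% over the table and 39.3% for Prg4. Galnt6 held 1 GC box, and 33.1% of all promoters held at least 1. The annotated start of Galnt6 falls on the letters ATG, a start codon. Its window may therefore lie inside the gene, and its matches may not be promoter matches. Matches to TATAAA stood in Prg4, Fscn1 and Galnt6 (14.2% of all promoters) at -25 to -20, -45 to -40 and -248 to -243, and a match to CCAAT in Prg4 (37.5%). Of these, only the Fscn1 match was on the gene strand, and those in Prg4 and Galnt6 were on the opposite strand. AP-1, TEAD and STAT letters were in none of the 5 windows and in 7.33%, 14.2% and 8.87% of all promoters. A match is a run of letters and not evidence of binding.

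The library totals ran from 20680237 to 28784941 expected counts, and the counts of the 5 genes ran from 60.4 (Prg4 in a control) to 12207 (Vat1l after UVB), so none was near the limit of detection. Letters a to d name the controls and a to c the UVB libraries, without pairing them, and values are listed in that order. Levels are given as the authors' TPM, which corrects for transcript length, and differences as log2 fold changes from edgeR on counts. In the 13709 genes tested, 12.8% had every UVB library above every control, and 6.30% were called higher at an adjusted p under 0.05 (edgeR). All 5 genes belong to both sets, which follows from how they were chosen. Counting both directions, the groups did not overlap in 26.6% of the tested genes. In whole tissue, a change in the number of cells of a type and a change in RNA per cell cannot be told apart.

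**Figure D1:**
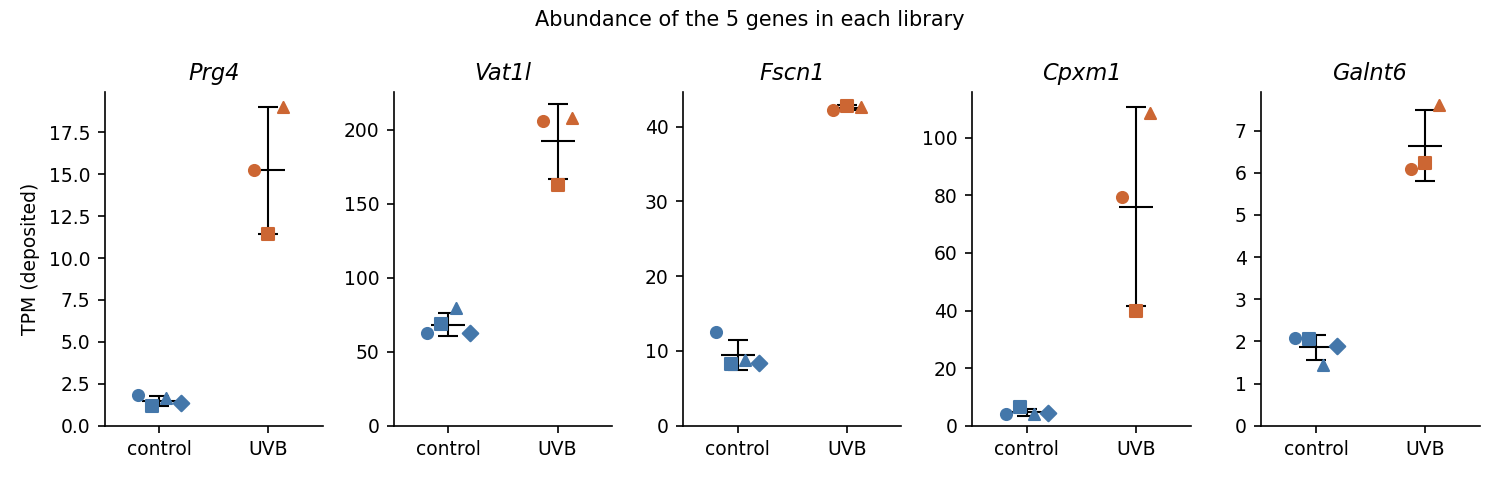
Deposited TPM of the 5 genes (each panel has its own linear axis from 0). Points are libraries, with marker shapes for letters a to d, and bars show mean and SD; the 3 UVB points lie above the 4 control points in each panel, and those of Fscn1 lie between 42.2 and 42.8.

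RNA of Prg4 and Cpxm1, the genes of secreted proteins, differed most. Prg4 (NCBI gene 289104) measured 1.82, 1.16, 1.64 and 1.36 TPM in the controls, and 15.2, 11.5 and 19.0 TPM in the UVB libraries. Its lowest UVB library was 6.28 times its highest control in CPM (CPM are counts scaled by TMM for library size), rank 4 of the 11967 genes with a mean count of at least 50. The log2 fold change was 3.34 (SE 0.20), a 10.1-fold difference of fitted levels. In controls 12.8% of the tested genes had a lower mean TPM than Prg4, and after UVB 51.1% did, so it moved from the scarce transcripts to the middle of the range.

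The count of Prg4 carries an uncertainty of its own. It was whole in 0 of 7 libraries, and Prg4 overlaps Tpr, a nuclear pore gene, in GRCr8. Added together, the counts of Prg4 and Tpr were whole in 7 of 7 libraries (within 0.001), so the fractional parts of this pair of genes add up to whole reads. Prg4 took 1.92% to 3.09% of the joint count in the controls and 16.3% to 23.7% after UVB. Tpr itself measured 28.6 to 30.7 TPM in controls and 30.1 to 31.8 TPM after UVB, with a log2 fold change of 0.056 (SE 0.052 and, by edgeR, adjusted p = 0.515). The groups overlapped for Tpr and were far apart for Prg4.

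Cpxm1 (NCBI gene 296156) had the largest fold difference and the widest spread of the 5. The controls measured 4.03, 6.45, 3.89 and 4.46 TPM, and the UVB libraries 79.6, 39.8 and 108.7 TPM. The UVB libraries differed among themselves by 2.73 times, with UVB b lowest, and their coefficient of variation was 45.4% against 25.2% in the controls. The lowest of them was still 6.18 times the highest control. The log2 fold change was 4.01 (SE 0.36), and it ran from 3.66 to 4.32 over 14 alternative analyses. Counts were whole in all 7 libraries.

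Fscn1 (NCBI gene 683788) was the most even after irradiation. It measured 12.5, 8.22, 8.80 and 8.38 TPM in the controls and 42.2, 42.8 and 42.6 TPM in the UVB libraries, a coefficient of variation of 0.729% in UVB libraries on this scale and 4.37% in CPM. The controls varied more (21.3% in TPM), because control a stood above the other 3. Its log2 fold change was 2.19 (SE 0.15), and 2.38 without control a. By mean TPM it stood above 39.6% of tested genes in controls and above 76.6% after UVB. In GRCr8 it overlaps the unnamed locus LOC120095835, and the handling of strand is not given in the sources used here.

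The Golgi transferase gene Galnt6 (NCBI gene 100361647) was scarce in both groups. It measured 2.07, 2.06, 1.44 and 1.88 TPM in the controls and 6.10, 6.23 and 7.61 TPM in the UVB libraries, from 92 to 101 counts in a control and 284 to 444 in a UVB library. Its groups were separated by 2.95 times in TPM, and its log2 fold change was 1.83 (SE 0.16). By mean TPM 15.0% of tested genes stood below it in controls and 32.8% after UVB.

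Vat1l (NCBI gene 361414) was the most abundant of the 5 and had the smallest fold difference. It measured 62.8, 68.4, 79.6 and 62.7 TPM in the controls and 205.9, 162.8 and 207.9 TPM in the UVB libraries. The lowest UVB library was 2.05 times the highest control in TPM and 2.12 times in CPM, rank 28 of 11967 by this measure, while Fscn1 and Galnt6 stood at ranks 13 and 14 and Cpxm1 at rank 5. Its log2 fold change was 1.48 (SE 0.10). With 3087 to 12207 counts a library, Vat1l had the smallest standard error of the 5.

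In order of level, Vat1l led in both groups. In controls Fscn1 (9.47 ± 2.01 TPM, SD, n = 4) came next, then Cpxm1 (4.71 ± 1.19), Galnt6 (1.86 ± 0.295) and Prg4 (1.495 ± 0.293); the ranges of the last pair overlapped. After UVB Cpxm1 (76.0 ± 34.5 TPM, SD, n = 3) came after Vat1l, followed by Fscn1 (42.5 ± 0.310), Prg4 (15.2 ± 3.78) and Galnt6 (6.65 ± 0.837). Cpxm1 and Fscn1 were not separated there, since Cpxm1 in UVB b (39.8 TPM) lay below every Fscn1 value.

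**Figure D2:**
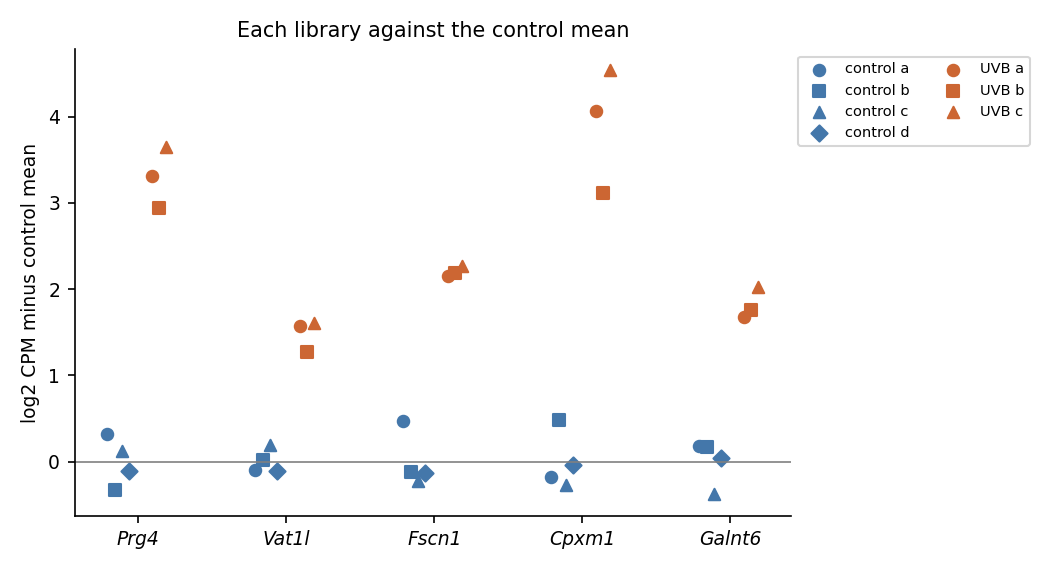
Log2 CPM of each library minus the mean of the 4 controls, for the 5 genes. UVB b (orange squares) is the lowest UVB library for Prg4, Vat1l and Cpxm1, and UVB a (orange circles) for Fscn1 and Galnt6; UVB c is the highest for all 5.

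The 5 genes did not rank the UVB libraries alike. In log2 CPM above the control mean, UVB b was the lowest UVB library for Prg4 (2.94, against 3.31 in UVB a and 3.65 in UVB c), Vat1l (1.28, against 1.57 and 1.61) and Cpxm1 (3.11, against 4.06 and 4.54). For Fscn1 and Galnt6 the lowest was UVB a, at 2.15 and 1.68. UVB c was the highest for all 5 on this scale. The controls showed no shared order either: control a was highest for Prg4, Fscn1 and Galnt6, control b for Cpxm1 and control c for Vat1l. Pearson's r between pairs of the 5 genes over the 7 libraries ran from 0.947 (Vat1l and Galnt6) to 0.985 (Prg4 with Fscn1 or Vat1l). These values describe the step between groups that all 5 were chosen for.

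Relatives of the 5 genes were examined next. The lists below were put together around each gene and leave that gene out of every count. Over the 5 lists, 10 of 121 tested genes were called higher and 8 lower by edgeR (adjusted p under 0.05), 14.9% in all, where 13.0% of all tested genes were called, 6.30% higher and 6.74% lower. Over all tested genes the median log2 fold change was -0.0058. Of all tested genes 863 were called higher and 924 lower. With control b, c or d left out, 561, 421 and 507 were higher, and with UVB a or c left out, 569 and 563. With control b, c or d left out, 536, 430 and 436 were lower, and with UVB b or c left out, 434 and 605.

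**Figure D3:**
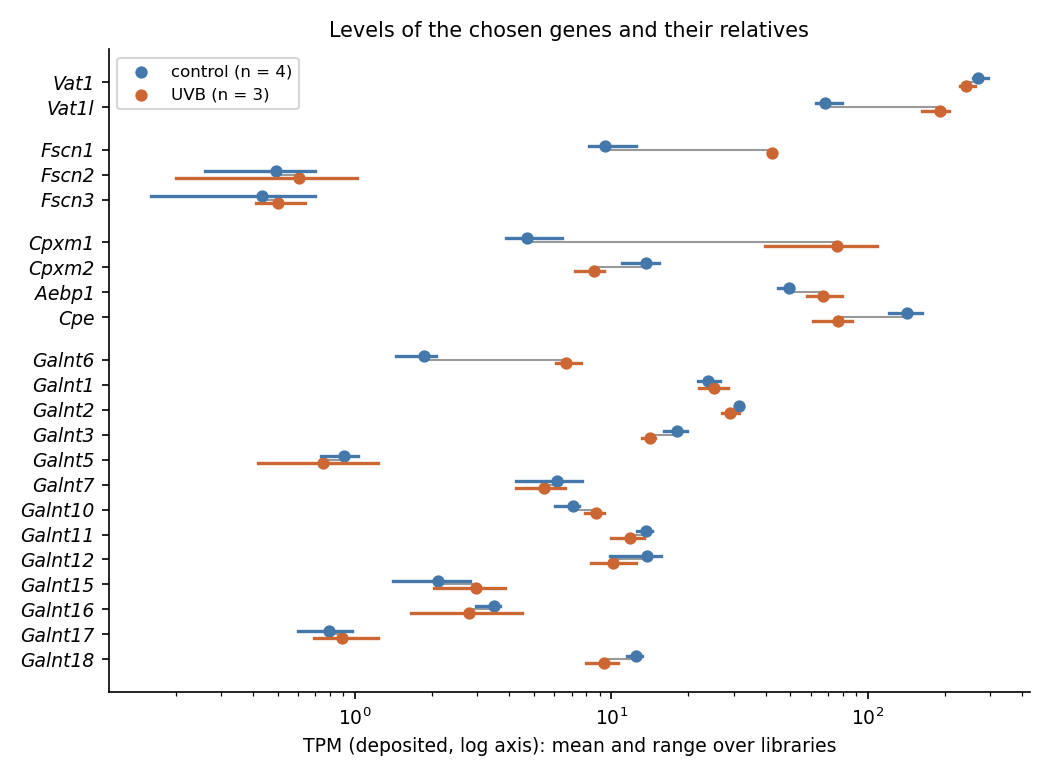
Deposited TPM (log axis) of the chosen genes and their nearest relatives: dots are group means and bars the range over 4 control (blue) or 3 UVB (orange) libraries. Vat1, Fscn2, Fscn3 and 10 of the 12 other Galnt genes were not called, Cpxm2, Cpe, Galnt3 and Galnt18 were lower, and Aebp1 was higher.

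Partners of lubricin and hyaluronan, the large glycan that forms a hydrated coat around cells, were called more often higher than lower. Of 27 tested genes besides Prg4, 5 rose and 2 fell by edgeR, and the median log2 fold change was 0.19. Cd44, the main hyaluronan receptor and a receptor of lubricin, rose from 39.8 ± 4.68 TPM (SD, n = 4) to 64.3 ± 7.77 TPM (SD, n = 3), with a log2 fold change of 0.68 (SE 0.11 and, by edgeR, adjusted p = 0.0071). The controls measured 34.9, 42.1, 37.2 and 45.2 TPM and the UVB libraries 68.0, 55.3 and 69.5 TPM, without overlap. Cemip, which takes part in the breakdown of hyaluronan, rose by a log2 fold change of 1.59 (SE 0.26, adjusted p = 0.0071) from a mean of 0.665 TPM. Stab1, a scavenger receptor of macrophages and vessel linings, rose by 1.17 (SE 0.20, adjusted p = 0.0105). Cd44, Cemip and Stab1 passed in all 14 alternatives.

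The other lubricin receptors did not pass. Tlr2 had a log2 fold change of -0.48 (SE 0.21 and, by edgeR, adjusted p = 0.168) and Tlr4 of 0.32 (SE 0.19, adjusted p = 0.288), and the groups overlapped for both. The other 4 calls in this list were Hapln4 (0.57), a link protein, Hmmr (0.76), a hyaluronan-binding protein of the mitotic spindle, Foxo3 (-0.27), a transcription factor, and Lgals3 (-0.25), a galectin gene and the most abundant of the list at 739 ± 42.4 TPM in controls (SD, n = 4). The first 3 of these were named after their values were seen. Lgals3 kept its call without control a and lost it without any other single library (adjusted p from 0.0616 to 0.125). Hmmr lost it without control c (0.0519) and without UVB a (0.0531). The list had 1 gene called lower in fits without control b, c or d, and in those without UVB a or b. Among the hyaluronan synthases, Has2 had the largest log2 fold change (1.19, SE 0.37) without a call (adjusted p = 0.0701), and Has1 (0.078, adjusted p = 0.822) and Has3 (0.46, adjusted p = 0.207) did not pass. Creb5, a factor known to drive Prg4 in joints, measured -0.73 (SE 0.23, adjusted p = 0.0632).

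Carboxypeptidases of the M14 family moved in both directions. Of 15 tested relatives of Cpxm1, 2 rose and 3 fell by edgeR. The median log2 fold change was -0.30, but 0.026 and 0.0072 in the TPM fits restricted to a mean of at least 1 TPM, so the sign of the median depended on the filter and unit. Without control d it was -0.0094 and without UVB c -0.041, and it was -0.46 without control a or without UVB a. The nearest relatives of Cpxm1 split. Cpxm2 fell from 13.7 ± 1.93 TPM (SD, n = 4) to 8.55 ± 1.17 TPM (SD, n = 3), which is a log2 fold change of -0.69 (SE 0.13 and, by edgeR, adjusted p = 0.0115). Aebp1, which encodes a collagen-binding protein of fibrous tissue, rose by 0.43 (SE 0.095 and, by edgeR, adjusted p = 0.0204). The call was lost without control c (0.0561) and by limma on log2(TPM + 1) without a filter (0.0582). Of the summed TPM of Cpxm1, Cpxm2 and Aebp1, Cpxm1 was 5.68% to 8.86% in the controls and 37.8% to 59.9% after UVB.

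The prohormone-processing enzyme gene Cpe had the smallest p-value of the relatives of Cpxm1. It measured 162.4, 132.4, 156.0 and 121.3 TPM in the controls and 81.8, 61.4 and 87.2 TPM in the UVB libraries, so every UVB library lay below every control. Groups without overlap, in either direction, were found for 26.6% of all tested genes. The log2 fold change of Cpe was -0.90 (SE 0.14 and, by edgeR, adjusted p = 0.0068), with a call in all 14 alternatives, as for Cpxm2. Named after their values were seen, the other calls were Cpa3, a protease of mast cell granules (1.09, SE 0.25, adjusted p = 0.0223), and Cpa6 (-0.99, SE 0.28, adjusted p = 0.0475). Cpa3 lost its call without control b (0.0524), control c (0.0652) or UVB c (0.0635), and Cpa6 in every fit that left out a library other than control a (0.0596 to 0.134). Without control c, 0 genes of the list were called higher by edgeR, and without control b or UVB c 1 was. Cpa4 had the highest mean TPM of the list, at 139.3 ± 39.3 TPM in controls (SD, n = 4) and 88.2 ± 33.0 TPM after UVB (SD, n = 3). Its mean lay below that of Cpe in controls (143.0 TPM) and above that of Cpe after UVB (76.8 TPM). Cpa4 did not pass (-0.67, SE 0.30 and, by edgeR, adjusted p = 0.189).

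Of the tested actin bundling and filopodium genes besides Fscn1, 4.76% were called by edgeR, where 13.0% of all tested genes were. Of 42 tested genes besides Fscn1, 2 rose and 0 fell by edgeR; at an unadjusted p under 0.05 there were 5 in each direction, and DESeq2 called 4 lower. The median log2 fold change was 0.014. Msn, which encodes moesin, a linker of actin to the cell membrane, rose from 47.6 ± 3.57 TPM (SD, n = 4) to 66.6 ± 12.1 TPM (SD, n = 3), which is a log2 fold change of 0.48 (SE 0.11 and, by edgeR, adjusted p = 0.0247). Rhof, a GTPase of filopodia, rose by 0.75 (SE 0.19, adjusted p = 0.0318). Msn lost its call without control c (0.0703), UVB a (0.0647) or UVB c (0.0661), and Rhof without control a (0.0545), b (0.0764) or d (0.0830) or UVB a (0.0673) or c (0.102). By edgeR 0 genes of the list were called higher without UVB a or without UVB c, and 1 without control b, c or d. Without UVB a 2 genes were called lower, and without control a 1.

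The other fascin genes were scarce. Fscn2 measured 0.493 ± 0.196 TPM in controls (SD, n = 4) and 0.603 ± 0.410 TPM after UVB (SD, n = 3), and Fscn3 0.433 ± 0.234 and 0.50 ± 0.123 TPM; neither passed (edgeR adjusted p = 0.744 and 0.835). Fscn1 made up 88.6% to 93.5% of fascin TPM in controls and 96.8% to 98.0% after UVB. The most abundant gene of the list, Actn4, which crosslinks actin and whose counts were whole in 0 of 7 libraries, had a log2 fold change of -0.082 (SE 0.069, adjusted p = 0.461).

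Besides Galnt6, 8.70% of the tested genes of mucin-type O-glycosylation were called by edgeR, where 13.0% of all tested genes were. Of 23 tested genes besides Galnt6, 0 rose and 2 fell by edgeR, with a median log2 fold change of -0.11; at an unadjusted p under 0.05 there were 1 higher and 4 lower, and DESeq2 called 1 higher. Galnt3, whose enzyme is of the same subfamily as that of Galnt6, measured 17.66, 18.65, 19.81 and 16.06 TPM in the controls and 14.43, 13.15 and 14.76 TPM in the UVB libraries. Its log2 fold change was -0.36 (SE 0.083 and, by edgeR, adjusted p = 0.0227). Galnt18 fell by 0.42 on the log2 scale (SE 0.11, adjusted p = 0.0381). Galnt3 lost its call without control b (0.0560), control c (0.0668), UVB a (0.0520) or UVB b (0.0747), and Galnt18 lost its call without any one library other than UVB c (0.0572 to 0.113). By edgeR 0 genes were called lower without control b, control c or UVB b, and 1 without control d or UVB a. Without UVB c, 1 gene was called higher.

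Galnt6 took a larger share of its family's RNA after UVB. The 13 tested Galnt genes summed to between 126.6 and 141.4 TPM in controls and between 116.1 and 137.5 TPM after UVB, ranges that overlap. Galnt6 was 1.38% ± 0.257 of that sum in controls (SD, n = 4) and 5.21% ± 0.711 after UVB (SD, n = 3). Galnt2 and Galnt1 led the family in both groups, at 31.6 ± 1.01 and 23.8 ± 2.22 TPM in controls (SD, n = 4), and did not pass (edgeR adjusted p = 0.259 and 0.642). St6galnac6, a sialyltransferase gene and the most abundant of the list, had a log2 fold change of 0.069 (SE 0.074, adjusted p = 0.575).

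**Figure D4:**
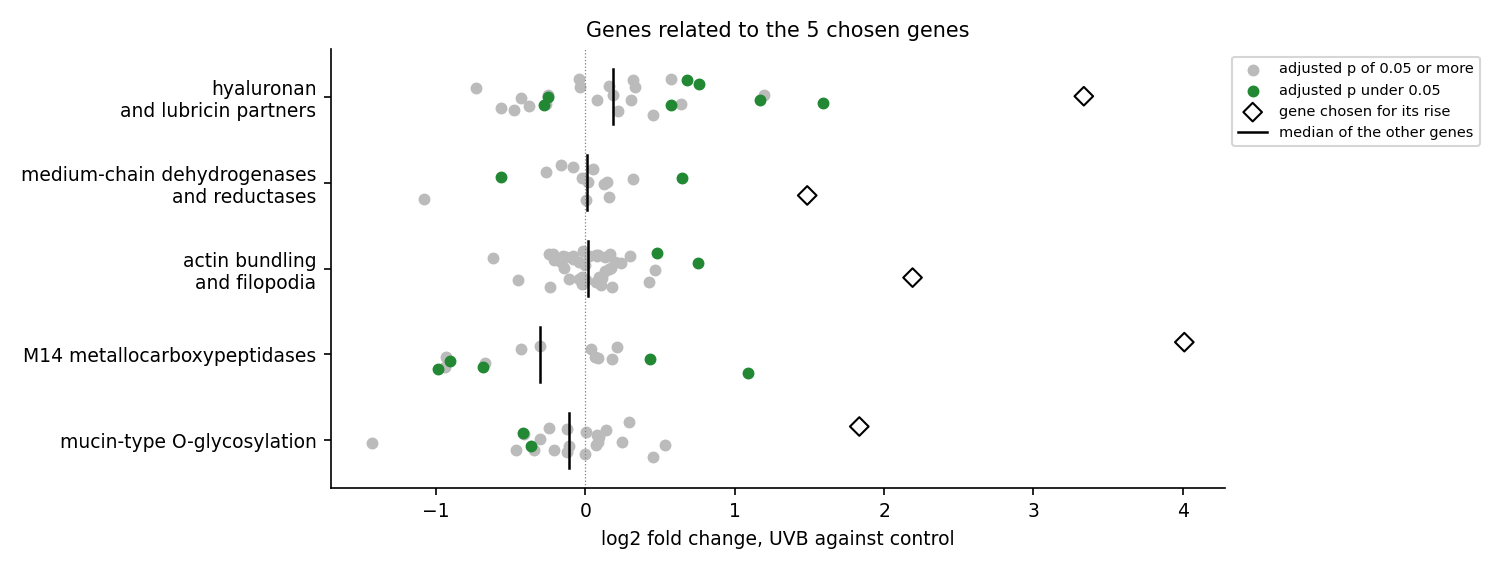
Log2 fold change of each tested gene in the 5 lists (grey, not called; green, adjusted p under 0.05), with the chosen gene as an open diamond and the median of the other genes as a vertical line. Each diamond lies to the right of all other genes of its list, and the medians lie between -0.30 and 0.19.

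Medium-chain dehydrogenases and reductases, the family of Vat1l, gave 1 gene higher and 1 lower of 14 tested by edgeR, with a median log2 fold change of 0.010. Ptgr1, which encodes a reductase of prostaglandins and reactive aldehydes, rose from 116 ± 18.0 TPM (SD, n = 4) to 183 ± 14.7 TPM (SD, n = 3), which is a log2 fold change of 0.65 (SE 0.12 and, by edgeR, adjusted p = 0.0124), with a call in all 14 alternatives. Adh7, an alcohol dehydrogenase gene of epithelia that acts on retinol, fell by 0.56 on the log2 scale (SE 0.12, adjusted p = 0.0201); the call was lost without UVB a (0.0612) or UVB b (0.0654), which left 0 genes called lower. Vat1, the closest relative, did not pass (-0.17, SE 0.082, adjusted p = 0.209). Vat1 measured 271 ± 16.7 TPM in controls (SD, n = 4) and 242 ± 17.3 TPM after UVB (SD, n = 3), so Vat1l was 17.5% to 23.3% of their joint TPM in the controls and 38.3% to 47.5% after UVB. Fasn, the fatty acid synthase gene, led the list in TPM and had a log2 fold change of 0.32 (SE 0.12, adjusted p = 0.106); it was called without control a (0.42, 0.0186), where 2 genes were called higher and 2 lower, and by DESeq2.

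Genes whose profile was most like each of the 5 were found among 11324 named genes with a mean count of at least 50, by the root mean square difference of centred log2 CPM over the 7 libraries. Genes near any of the 5 share its step between groups by construction, so their fold changes are given without a test. For Prg4 they were Cd163 (difference 0.41), a haemoglobin scavenger receptor of macrophages, Car2 (0.45), a carbonic anhydrase, and Timp1 (0.48), an inhibitor of metalloproteinases. For Cpxm1 they were Sprr1b (0.49), a precursor of the cornified envelope, Prg4 (0.53) and Cd163 (0.54). Pearson's r for these pairs was 0.957 to 0.975. In TPM, Cd163 measured 0.56 to 1.46 in controls and 13.5, 5.54 and 14.6 in the UVB libraries. Cd163, Timp1 and Sprr1b were lowest in UVB b among the UVB libraries, as Prg4 and Cpxm1 were. Car2 was lowest in UVB a (39.6, against 59.5 and 95.8 TPM). A shared order of the UVB libraries is partly built in, since all 7 libraries entered the choice.

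Fscn1 and Galnt6 were near each other and shared a neighbour. For Fscn1 the nearest were Epgn (0.21), which encodes a ligand of the EGF receptor, Galnt6 (0.27) and Defb4 (0.30), a beta-defensin gene. For Galnt6 they were Defb4 (0.21), Fetub (0.230) and Klk6 (0.230), a kallikrein protease gene. Defb4 measured 63.6 to 85.4 TPM in controls and 228.0, 270.2 and 343.0 TPM in the UVB libraries. Vat1l had the closest neighbours of all: Lpl (0.129), which encodes lipoprotein lipase, Ptgs1 (0.129), which encodes the constitutive cyclooxygenase, and C1qtnf5 (0.16). Lpl measured 12.9 to 17.7 TPM in controls and 35.2 to 37.7 TPM after UVB, and its log2 fold change was 1.33 beside 1.48 for Vat1l.

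**Figure D5:**
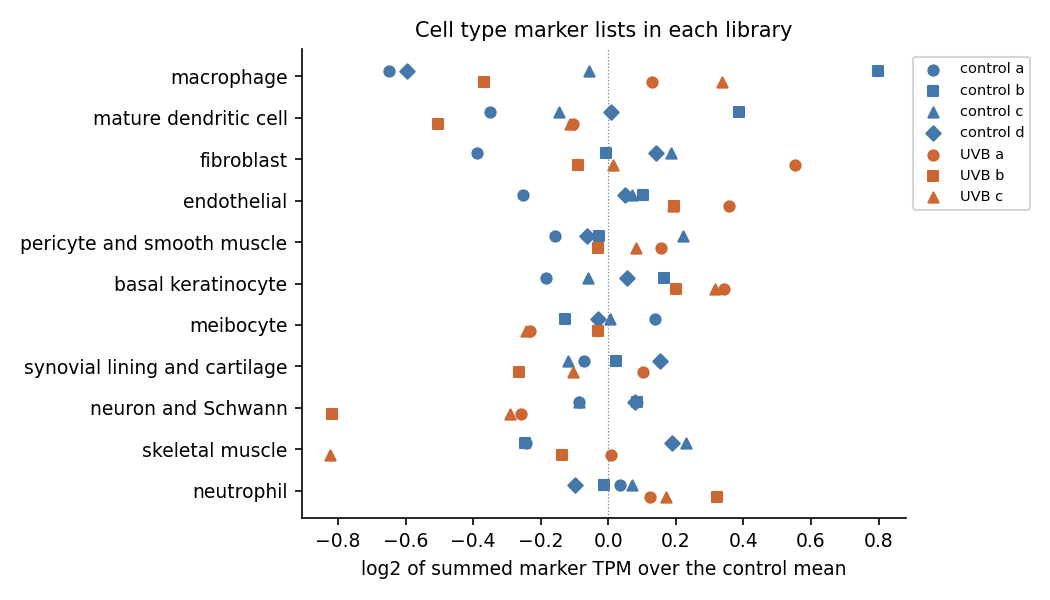
Summed TPM of 11 lists of cell type markers in each library, as log2 over the control mean. Macrophage, dendritic cell and fibroblast sums overlap between groups, while the endothelial, basal keratinocyte and neutrophil sums are higher and the neuron and Schwann sum is lower in all 3 UVB libraries. The largest single part is Lyz2 in the macrophage sum and Krt14 in the basal keratinocyte sum.

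Markers of cell types that could carry these transcripts were measured in the same libraries. For the counts of called markers below, 6.30% of all tested genes were called higher and 6.74% lower. The glands showed the labelled tissue: 8 meibocyte markers summed to between 42187 and 50791 TPM in controls and between 38969 and 45128 TPM after UVB, with 2 of 8 called lower by edgeR (Awat2 and Plin2) and the rest not passing. Mature dendritic cells, which contain fascin, were faint: their 8 markers summed to 8.24 to 13.7 TPM in controls and 7.40 to 9.77 TPM after UVB, Lamp3 was listed at 0 in all 7 libraries, and 2 of 7 tested markers were higher (Ccr7 and Cd80) and 1 lower (Ccl22). That sum was below the level of Fscn1 in all 3 UVB libraries and in control a, and above it in controls b (13.7 against 8.22 TPM), c (9.48 against 8.80 TPM) and d (10.6 against 8.38 TPM). A sum of marker TPM does not measure how much Fscn1 RNA dendritic cells carry, and their part in its level was not tested. Macrophage markers summed to 188.2 to 513.2 TPM in controls and 228.5 to 372.1 TPM after UVB, and 5 of 10 were higher (Cd163, Mrc1, C1qb, C1qc and Cd14) with a median log2 fold change of 0.87. The largest part of this sum was Lyz2, at 85.7 to 338.6 TPM in controls and 72.2 to 114.3 TPM after UVB. Lyz2 did not pass (-0.77, SE 0.51 and, by edgeR, adjusted p = 0.359). UVB b was the lowest UVB library for Prg4, Cpxm1 and Vat1l, and not for Fscn1 and Galnt6. Among the UVB libraries it had the lowest sum in 7 of the 11 lists. These were the macrophage, mature dendritic cell, fibroblast, pericyte and smooth muscle, basal keratinocyte, synovial lining and cartilage, and neuron and Schwann lists. UVB c was lowest in 3 lists and UVB a in 1. UVB b had the highest UVB sums of meibocyte (45128 TPM) and neutrophil markers (2115 TPM). A link between these sums and the levels of the 5 genes was not tested.

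Fibroblast markers summed to 1130 to 1680 TPM in controls and 1388 to 2166 TPM after UVB; 4 of 9 were higher, led by Lum (1.95, SE 0.21), and 2 lower. Markers of synovial lining and cartilage, the tissues best known for lubricin, did not pass in any of 6 tested genes by edgeR. At an unadjusted p under 0.05, Comp was higher and Sox9 lower. Col2a1 and Matn3 were under 0.1 TPM in every library. Has1 and Clic5, genes of the synovial lining, stayed between 2.13 and 9.94 TPM, and Sox9 between 15.7 and 25.5 TPM. Basal keratinocyte markers summed to 8109 to 10332 TPM in controls and 10579 to 11685 TPM after UVB, without overlap, and 3 of 6 were higher (Krt14, Itga6 and Itgb4). Krt14 was the largest part of this sum, with a mean of 5279 TPM in controls and 7338 TPM after UVB. Krt5 (log2 fold change -0.021), Col17a1 (-0.18) and Tp63 (-0.089) did not pass. Endothelial sums (53.8 to 68.8 and 73.1 to 82.1 TPM) and neutrophil sums (1579 to 1776 and 1840 to 2115 TPM) were also higher in every UVB library, with 2 of 6 and 2 of 3 tested markers called. The neutrophil sum was almost all S100a8 and S100a9, which stressed keratinocytes also express; Csf3r measured 0.05 to 0.16 TPM in controls and 0.51 to 1.71 TPM after UVB, and Mpo and Ngp did not exceed 0.41 and 0.22 TPM. Pericyte and smooth muscle sums (609.5 to 791.9 and 665.6 to 757.0 TPM) overlapped, with 2 of 6 higher. Neuron and Schwann cell markers were lower in every UVB library (66.6 to 75.0 and 40.1 to 59.2 TPM), with 1 of 7 called higher and 2 lower. Skeletal muscle markers overlapped (1700 to 2368 and 1139 to 2031 TPM), with 1 of 5 called lower. The part of any of these cell types in the levels of the 5 genes was not tested.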

How the data were processed

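RNA sequencing of meibomian gland gave 1 table of counts and 1 of TPM per gene for 4 control and 3 UVB libraries. The authors deposited expected counts per gene, as estimates rather than whole reads (12.5% of values are not whole), and the deposited TPM are normalised to transcript length and library; over the listed genes their sums are 82.0% to 84.1% of a full TPM total. The submitters' processing notes name FastQC, Trimmomatic, DRAGEN, Picard and build rn7; the counting program, annotation and use of strand are not given in the sources used here. Commas inside descriptions shift 2281 rows, which were read from their right end, and 5 rows whose last cells are not all numbers were left out, leaving 17246 genes.

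Libraries were grouped by the labels' treatment, and column names could be matched to groups but not to single samples. Between libraries of a group, the chi-square statistic per degree of freedom of the counts was at least 10.9, so none is a copy of another. Expected counts were rounded and tested with edgeR 4.0.16 in R 4.3.3 (TMM, filterByExpr, robust quasi-likelihood test, Benjamini-Hochberg over 13709 genes, threshold 0.05). Alternatives used DESeq2 1.42.0, limma 3.58.1 on log2(TPM + 1) or log2(TPM + 0.1), other filters or scaling, and each library left out, 14 in all. A log2(TPM + pseudocount) change understates the change of low genes. The scripts were tested on simulated data.

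The 5 genes, the gene lists and the marker lists were chosen with earlier results of these data known. Of 159 listed symbols 15 were not analysed here. The genes named are the 5; in each list the 3 with the smallest p among those called and the most abundant; the 3 most similar profiles to each of the 5; and Cd44, Tlr2, Tlr4 and Tpr. Any other gene given with a value was named after its values were seen. Similarity used centred log2 CPM with a prior count of 2. Promoters are those of RefSeq for GRCr8, a different build from rn7, and show sequence only.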

Additional observations from a re-analysis of the deposited data

Results flagged for a closer look

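Among the 4 controls, the highest or lowest library stood apart from the other 3 in 4 of 56 sets of values compared, by the share of the range that separated it from its neighbour; about 2.8 would do so by chance. In Fscn1, control a measured 12.46 TPM against 8.22 to 8.80 TPM in the others, and 15.8 CPM against 9.69 to 10.5 CPM, which are the same reads on different scales. Without control a the log2 fold change of Fscn1 was 2.38 in place of 2.19. In Lpl, the gene nearest to Vat1l in profile, control c measured 38.7 CPM against 29.3 to 30.1 CPM. In C1qtnf5, another neighbour of Vat1l, control d measured 2.91 CPM against 3.76 to 3.92 CPM. The cause of these values was not tested.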

How the results depend on the processing

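Of all tested genes, 421 to 927 were called higher and 430 to 971 lower when single libraries were left out, and 521 were called lower by limma on log2(TPM + 1) without a filter. That unfiltered fit called 0 actin genes higher, 1 M14 carboxypeptidase higher and 1 O-glycosylation gene lower. Among the genes that lost their calls in it were Aebp1, Msn, Rhof, Galnt3 and Galnt18 (limma adjusted p from 0.0582 to 0.0686). All 3 TPM fits called 1 hyaluronan and lubricin gene lower, and both filtered ones called 2 dehydrogenases lower, as did edgeR without robust estimation. DESeq2 called 2 dehydrogenases higher and 2 lower, 4 actin genes lower and 1 O-glycosylation gene higher. With single libraries left out, the hyaluronan list had 1 to 3 genes lower, the dehydrogenases 1 to 2 higher and 0 to 2 lower, the actin list 0 to 2 higher and 0 to 2 lower, the M14 list 0 to 2 higher, and the O-glycosylation list 0 to 1 higher and 0 to 2 lower. The log2 fold change of Prg4 was 2.68 and that of Galnt6 1.42 in both log2(TPM + 1) fits, whose pseudocount compresses low genes. Vat1l, Fscn1 and Cpxm1 moved by less than the spread between libraries in all 14 alternatives. The cause of the other changes was not tested. No paired analysis was possible because column names could not be matched to the numbered samples of the labels. The number of libraries, 4 and 3, limits the precision of every fold change.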
